A study of Mus musculus with 4 samples.

Results

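The lymphoid genes described here are 33 genes that define B cells (13 genes), T cells (15 genes) and natural killer (NK) cells (5 genes), looked at in ChIP-seq peak lists from macrophages. They were taken by name, and a peak counted for a gene when it overlapped the gene or lay within 1000 bp of it in the RefSeq annotation of the mouse build mm10. By this rule 65 of 96551 peaks in 4 lists belonged to them, and the 33 genes stand among 21883 protein-coding genes. The cells were thioglycollate broth-induced peritoneal macrophages of C57BL/6 mice aged 8 weeks, put into culture after harvest. ChIP-seq mapped H3K4me3 and H3K9me3 in wild-type and Sun-/- cells (here Sun knockout), with 1 library for each mark and genotype, 4 in all, and every group shared the elicitation, the strain and the age. The labels do not say which Sun gene was removed, how it was removed, how many mice were used or whether cells were sorted. With no replicates, no test between genotypes was run.

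The libraries held 26748289 to 29681491 tags after the peak caller's filtering of duplicates. Peaks held 17.8% (wild type) and 14.0% (knockout) of the H3K4me3 tags, and 1.69% and 1.62% of the H3K9me3 tags. For the labelled cell type, 17 of 20 macrophage genes had H3K4me3 in both genotypes, beside 67.3% of all protein-coding genes. The mark alone does not identify the cells, since all 20 housekeeping genes and 19 of 20 developmental transcription factor genes, such as Pax6 and Lhx2, had it too. Marco had no peak, Ctss was called only with wild-type cells and Msr1 only with knockout cells. The nearest knockout H3K4me3 peak to Ctss, of 120 tags, lay 1671 bp from the gene, outside the window. Of 28 granulocyte and mast cell genes 6 had H3K4me3 in both genotypes, and of 29 differentiated genes of other tissues 10 did. In a bulk library, a strong mark in a few cells and a weak mark in all cells cannot be told apart. The part of lymphocytes among the harvested cells in the results below was not tested.

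Lymphocytes are made by transcription factors that switch on receptor genes and shut off other fates. Pax5 and Ebf1 set the B cell programme, Tcf7, Gata3 and Bcl11b that of T cells, and the receptor chains, co-receptors and kinases they control carry the antigen signal. H3K4me3 is laid down at the starts of active genes, and also at starts rich in the dinucleotide CG where transcription is low, while H3K9me3 marks silenced chromatin. An elicited peritoneal exudate is mainly macrophages, and the peritoneal cavity also has resident B cells and some T and NK cells.

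H3K4me3 was called at fewer of the lymphoid genes than of protein-coding genes at large. In the wild type 16 of 33 had a peak, or 48.5% (exact Clopper-Pearson 95% interval 30.8 to 66.5%, counting error only), beside 70.2% of all protein-coding genes. The knockout count was also 16, beside 68.7%. Across the libraries, 14 had a peak in both genotypes (67.3% of all genes) and 18 in at least 1 (71.7%). Cd5 and Il7r had one in the wild type alone (2.93% of all genes), and Fcrla and Zap70 in the knockout alone (1.43%). Hereafter a pair of tag numbers gives the wild type first and the knockout second. The other 15 had no H3K4me3 peak in either library: Cd79b, Ms4a1, Blk, Fcer2a and Pou2af1 of the B cell genes, Cd3e, Cd3g, Cd2, Cd8a and Cd8b1 of the T cell genes, and Klrb1c, Ncr1, Prf1, Gzma and Il2rb, the whole NK cell group. Their nearest H3K4me3 peaks lay at a median of 17.1 kb in the wild type and 18.6 kb in the knockout. At the edge of the rule stood Vpreb3, whose peak began 992 bp past the gene in the wild type, and Klrb1c, whose nearest peak lay at 1062 bp in the wild type (24 tags) and 1019 bp in the knockout (33 tags).

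**Figure D1:**
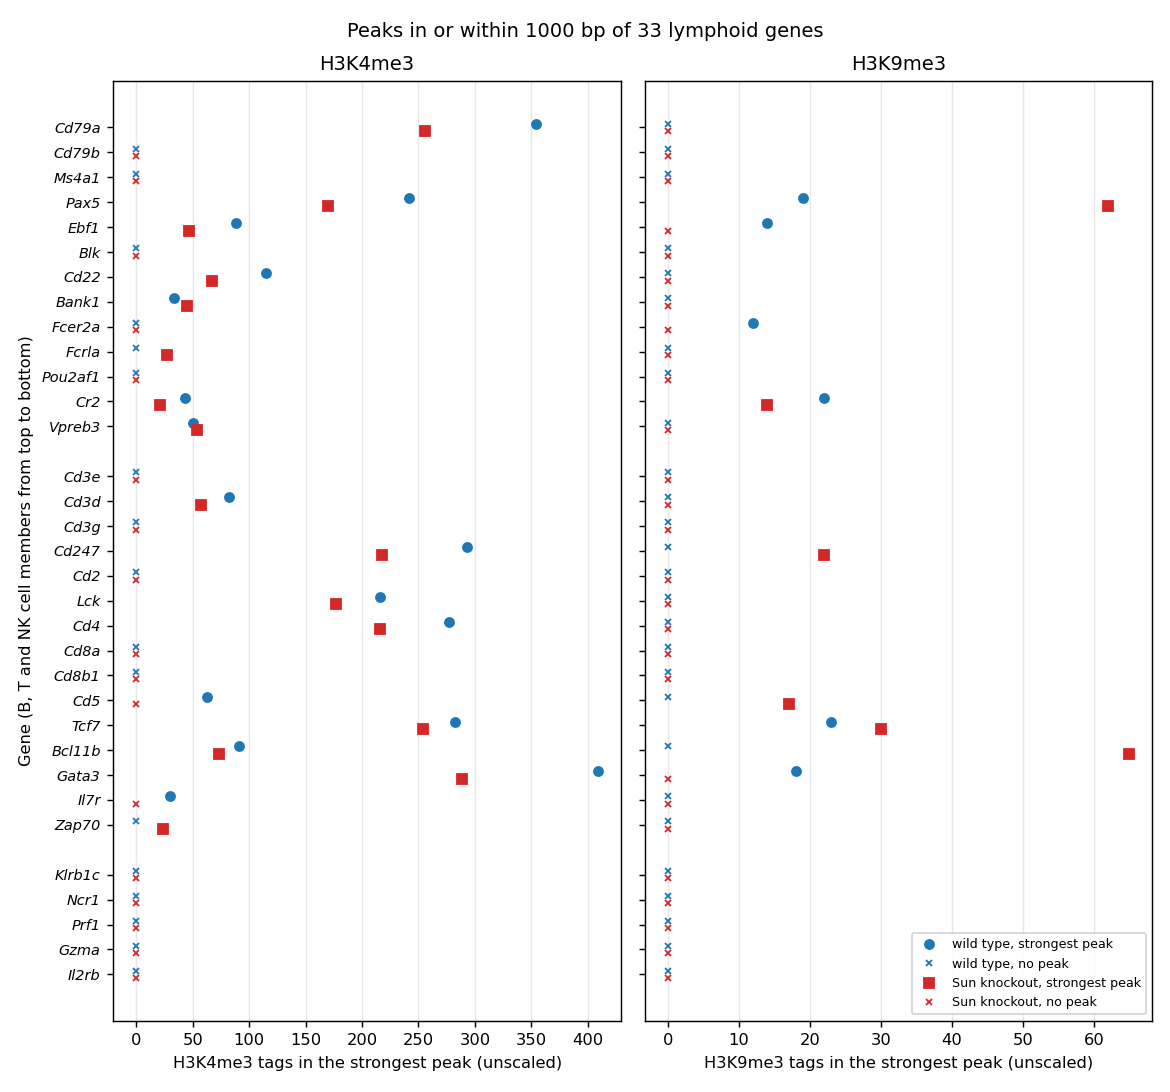
Unscaled tags in the strongest peak of each of the 33 lymphoid genes, for H3K4me3 (left) and H3K9me3 (right), with circles for wild type, squares for knockout and crosses at 0 where no peak was called. Gata3 had the most H3K4me3 tags (409 and 289), the 5 NK cell genes at the bottom had no peak of either mark, and no H3K9me3 peak held more than 65 tags.

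A peak counted by the rule was often not at the gene's own start. The RefSeq table gave starts for 26 of the 33 genes, and 9 of these had H3K4me3 within 1000 bp of a start in both genotypes, or 34.6%, beside 62.2% of all protein-coding genes with a start. The table has no start for Cd79b, Ms4a1, Blk, Cd2, Cd4, Cd8b1 and Il2rb, and for some genes it lacks the outermost one. The 9 genes were Pax5, Ebf1, Cd22, Bank1 and Cr2 of the B cell group and Lck, Tcf7, Bcl11b and Gata3 of the T cell group. Cd5 and Il7r were marked at the start in the wild type alone, which brought that library to 11 of 26 (64.7% of all genes) and the genes marked in at least 1 genotype also to 11 (65.7%), beside 63.2% of all genes for the 9 of the knockout.

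By gene length, H3K4me3 in at least 1 genotype was at 3 of 8 lymphoid genes under 10 kb (49.7% of all genes of that length), 7 of 15 from 10 to 30 kb (78.4%), 5 of 7 from 30 to 100 kb (87.6%) and all 3 of 100 kb or more (91.9%).

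**Figure D2:**
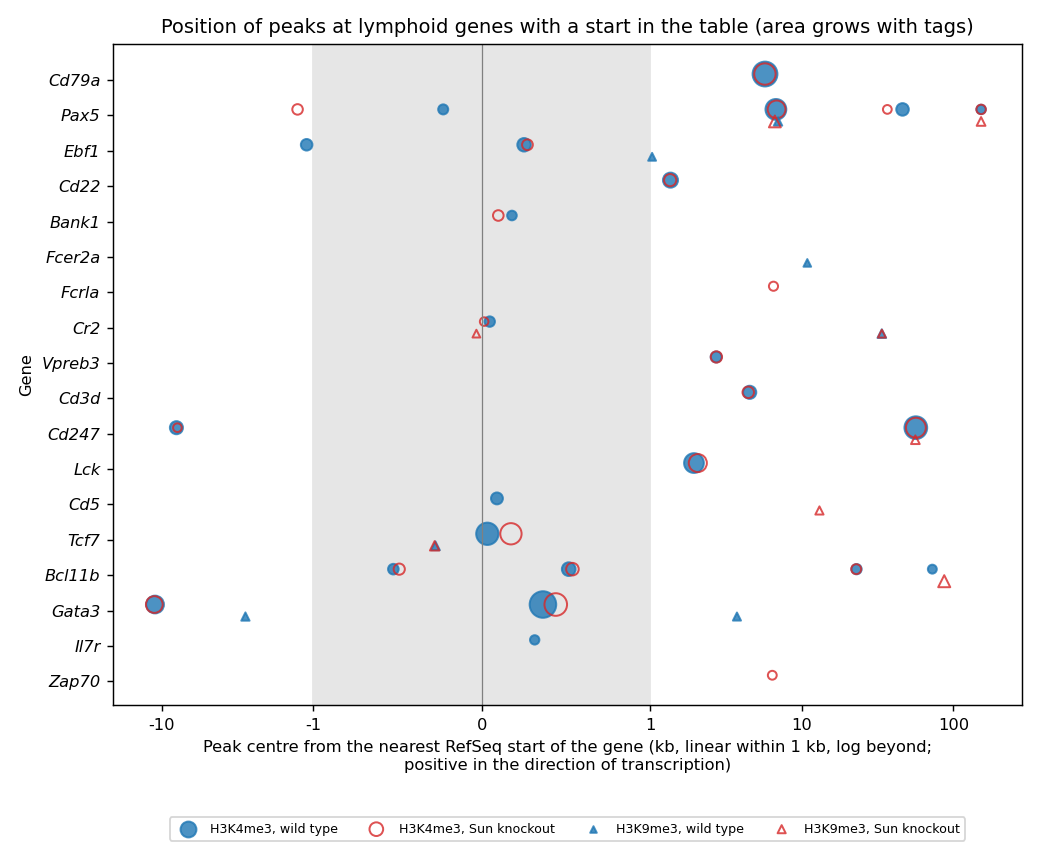
Distance of each peak's centre from the nearest RefSeq start of its gene in kb (linear within 1 kb, shaded, and logarithmic beyond, positive in the direction of transcription), for the genes with a peak and a start in the table; circles are H3K4me3, triangles H3K9me3, filled for wild type and open for knockout, and area grows with tags. The largest H3K4me3 peaks of Tcf7 and Gata3 lay on the start, whereas those of Cd79a, Vpreb3, Cd3d and Zap70 and the larger peaks of Pax5 and Cd247 lay more than 2 kb away.

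Promoter sequences of 3 marked and 3 unmarked genes are shown because H3K4me3 was called more often at starts with more CG dinucleotides. Each is the 150 bases just outside its outermost RefSeq end, 5' to 3' on the gene's strand, with every CG in capitals. Pax5 (chr4:44710695-44710844, minus strand), Ebf1 (chr11:44617950-44618099, plus strand) and Bank1 (chr3:136326142-136326291, minus strand) had an H3K4me3 peak within 1000 bp of the start in both genotypes. Cd79a (chr7:24897347-24897496, plus strand), Cd8a (chr6:71373277-71373426, plus strand) and Gzma (chr13:113100982-113101131, minus strand) had none. Sequences are from RefSeq, GRCm38.p6.
Pax5: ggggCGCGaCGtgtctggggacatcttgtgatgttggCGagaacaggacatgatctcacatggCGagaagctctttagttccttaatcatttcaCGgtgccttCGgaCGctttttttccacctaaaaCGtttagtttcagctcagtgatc
Ebf1: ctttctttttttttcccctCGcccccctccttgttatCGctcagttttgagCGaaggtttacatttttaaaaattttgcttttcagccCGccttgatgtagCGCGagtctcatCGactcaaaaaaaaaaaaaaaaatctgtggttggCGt
Bank1: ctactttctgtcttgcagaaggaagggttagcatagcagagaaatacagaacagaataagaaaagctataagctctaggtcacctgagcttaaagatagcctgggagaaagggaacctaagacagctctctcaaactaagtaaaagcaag
Cd79a: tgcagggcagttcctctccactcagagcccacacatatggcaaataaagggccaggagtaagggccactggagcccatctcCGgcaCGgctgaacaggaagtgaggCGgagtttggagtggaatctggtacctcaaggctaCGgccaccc
Cd8a: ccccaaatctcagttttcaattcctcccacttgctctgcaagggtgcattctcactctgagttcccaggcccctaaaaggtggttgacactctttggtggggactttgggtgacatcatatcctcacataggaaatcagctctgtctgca
Gzma: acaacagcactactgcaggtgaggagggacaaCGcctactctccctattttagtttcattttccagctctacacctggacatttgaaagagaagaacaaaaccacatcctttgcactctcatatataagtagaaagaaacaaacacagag

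In these stretches Pax5 held 9 CG and Ebf1 8, against 4 in Cd79a, 1 in Gzma and 0 in Cd8a. Bank1 held 0 and was marked nonetheless. Over the 300 bases around each start (250 before and 50 after), CG was counted on 34 starts of the 26 genes. There Pax5 held 23 CG, the outer start of Ebf1 9 and Bank1 3, against 8 in Cd79a, 5 in Gzma and 3 in Cd8a. Ebf1 and Cd79a were thus close by this wider count. The median was 9 CG at the 12 starts marked in the wild type and 4 at the 22 not marked, beside 13 over all 21262 starts of protein-coding genes.

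The lymphoid starts were then set beside all starts of like CG number. With 20 or more CG, all 3 lymphoid starts were marked in both genotypes (Gata3, Pax5 and the outer start of Tcf7, with 22, 23 and 45 CG), beside 97% of all starts. With 10 to 19 CG, 2 of 3 were marked, Cr2 and the second start of Tcf7, beside 83.7%, and the inner start of Ebf1 was not. With 5 to 9 CG, 3 of 12 were marked (Bcl11b, the outer start of Ebf1 and the inner start of Lck), beside 38.8%, and Cd3e, Cd79a, Gzma, Pou2af1, Prf1, Zap70 and the outer start of Lck were not. With 0 to 4 CG, 2 of 16 were marked, Bank1 and Cd22, beside 10.5%, and the unmarked genes included Cd3d, Cd3g, Cd8a, Klrb1c and Ncr1. Starts of 1 gene share their surroundings, so these counts are a description.

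**Figure D3:**
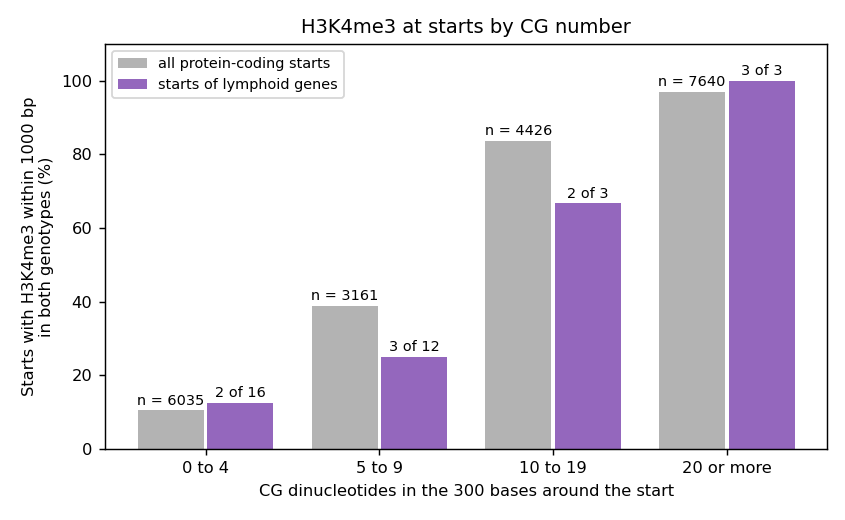
Percent of starts with an H3K4me3 peak within 1000 bp in both genotypes, by the number of CG dinucleotides in the 300 bases around the start, for all starts of protein-coding genes (grey) and for the 34 starts of lymphoid genes (purple, with counts). Both rise with CG number, from 10.5% to 97% of all starts and from 2 of 16 to 3 of 3 lymphoid starts.

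Among the B cell transcription factor genes, Pax5 carried 4 H3K4me3 peaks in each genotype and only weak ones at its start. Its largest peak, on chromosome 4 at 44702849 to 44705025, lay 5.67 kb inside the gene, on the noncoding RNA gene 5730488B01Rik, and held 242 and 170 tags. At the Pax5 start the wild-type peak held 38 tags, and the nearest knockout peak, of 44 tags, began 795 bp upstream. These 2 did not overlap, and lay 303 bp apart. Ebf1, which opens B cell chromatin, had a start peak of 88 and 47 tags, and the wild type had a further peak of 58 tags upstream. Pou2af1, which encodes the B cell coactivator OCA-B, had no peak within 37.9 kb in either library.

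The B cell receptor genes were unmarked at their own starts. Cd79a, a signal chain of the receptor, was counted by the rule for a peak of 354 and 256 tags (chromosome 7, 24902192 to 24904257 in the wild type). This peak began 334 bp past the far end of the gene, 4.70 kb from its start, and covered a start of the neighbouring Arhgef1. Cd79b, the other signal chain, had no peak within 2.90 kb in the knockout or 3.79 kb in the wild type. Ms4a1, which encodes CD20, and Blk, a B cell Src family kinase gene, had no H3K4me3 peak within 26.0 and 18.6 kb in either library. Vpreb3, a gene of early B cells, was counted for a peak of 50 and 54 tags past the gene, 2.35 kb from the start.

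Cr2, Bank1 and Cd22 had small peaks at or near the start. Cr2, a complement receptor gene of B cells, had 43 and 21 tags over its start, on chromosome 1. Bank1, an adaptor gene of B cell receptor signalling, had 33 and 45 tags over its start on chromosome 3. Cd22, an inhibitory coreceptor gene, had 115 and 67 tags in a peak inside the gene on chromosome 7. In the wild type this peak lay 676 bp from the start in the table and 1990 bp from the gene's outer 5' end. Per kb the start peaks of Pax5, Ebf1, Cd22, Bank1 and Cr2 held 59.8 to 104 tags in the wild type and 43.3 to 74.8 in the knockout, all below the median of all protein-coding genes with a start peak, 153 and 120 tags per kb. The medians of macrophage genes, 116 and 93.6 tags per kb, were below it too. Fcrla, an Fc receptor-like gene, had 27 tags in the knockout alone, 6.22 kb from its start.

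Of the T cell transcription factor genes, Gata3 and Tcf7 carried the largest start peaks of all the lymphoid genes. Gata3 had a peak of 3264 bp over a start (chromosome 2, 9876605 to 9879868 in the wild type) with 409 and 289 tags. A second Gata3 peak, of 169 and 148 tags, began 878 bp outside the gene in the wild type and overlapped the noncoding RNA gene 9230102O04Rik. Tcf7, which encodes TCF-1, had 282 and 254 tags over both of its starts (chromosome 11, 52282186 to 52283775 in the wild type). Per kb this was 177 and 141 tags, above the median of all protein-coding genes with a start peak. Gata3, at 125 and 92.0 tags per kb, was below it. Bcl11b, a T cell commitment factor gene, had a peak on each side of its start, with 91 and 73 tags on the inner side and 45 and 53 on the outer side, and smaller peaks 22.6 kb (40 tags) and 72.4 kb (25 tags) inside the gene in the wild type.

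The CD3 and coreceptor genes had no peak at a start in the table. Cd3e and Cd3g had no peak in either library, and Cd3d had 82 and 57 tags in a peak inside the gene, 3.99 kb from its start in the wild type and 5.34 kb from that of Cd3g. Cd247, the zeta chain gene, had 2 peaks in each genotype. One lay 193 bp inside the gene's outer 5' end in the wild type and held 81 and 22 tags. The other, with 293 and 218 tags, lay 55.7 kb from the start in the table, within the noncoding RNA gene Gm32999. Cd8a and Cd8b1 had no H3K4me3 peak within 59.9 and 49.6 kb. Cd4 was counted for a peak of 277 and 216 tags on chromosome 6 that lay outside the gene and covered an end of Gpr162, and for a small peak inside the gene with 34 and 22 tags.

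The T cell kinase and surface genes were mixed. Lck, the kinase gene of the CD4 and CD8 coreceptors, had 216 and 177 tags in a peak of 2016 bp in the wild type that ended 939 bp inside its inner start. Zap70, the kinase gene that acts after Lck, had 24 tags in the knockout alone, 6.13 kb from a start. Cd5, a brake on receptor signalling that peritoneal B-1 cells also carry, had 63 tags over its start in the wild type. In the knockout the nearest H3K4me3 peak lay 2206 bp outside the gene, with 44 tags. Il7r, the interleukin 7 receptor gene, had 30 tags at its start in the wild type, and no knockout H3K4me3 peak lay within 184 kb of the gene. Cd2, an adhesion receptor gene, had no H3K4me3 peak within 6.74 kb in the wild type. Zap70, Il7r and Fcrla, called in 1 genotype, had 24 to 30 tags, beside 17 tags in the smallest peak of either H3K4me3 list.

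The NK cell genes were without either mark in both genotypes. Gzma and Prf1, which encode granzyme A and perforin, the proteins that kill target cells, had no H3K4me3 peak within 47.2 and 12.3 kb in the wild type. Ncr1 and Klrb1c encode the receptors NKp46 and NK1.1. Ncr1 had no H3K4me3 peak within 61.8 kb in the wild type. Il2rb, the interleukin 2 receptor beta chain gene, had none within 17.1 kb.

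Other lists placed these values. H3K4me3 stood within 1000 bp of a start in both genotypes for 5 of 10 B cell, 4 of 12 T cell and 0 of 4 NK cell genes with a start. Cd247 counts as unmarked by its start in the table, though peaks lay 193 bp (wild type) and 632 bp (knockout) inside its outer 5' end. The same held for 11 of 13 macrophage genes and 16 of 16 housekeeping genes. It also held for 12 of 14 developmental transcription factor genes, such as Pax6, Lhx2 and Neurog2, but for only 2 of 20 differentiated genes of other tissues and 3 of 25 granulocyte and mast cell genes. Median tags per kb of the strongest start peak were 71.8 and 49.3 for B cell genes and 101 and 86.9 for T cell genes. They were 116 and 93.6 for macrophage genes, 143 and 112 for housekeeping genes and 77.4 and 72.5 for developmental transcription factor genes. They were 124 and 76.4 for granulocyte and mast cell genes, and 71.5 and 62.4 for the 2 differentiated genes of other tissues with a start peak. The lists are of 4 to 25 genes with a start, and no test compared them. Each median was taken over the genes with a start peak in that library, so its genes can differ between genotypes. They numbered 6 and 4 for T cell genes and 12 and 11 for macrophage genes. For developmental transcription factor genes they numbered 12 and 13, and for granulocyte and mast cell genes 4 and 6.

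**Figure D4:**
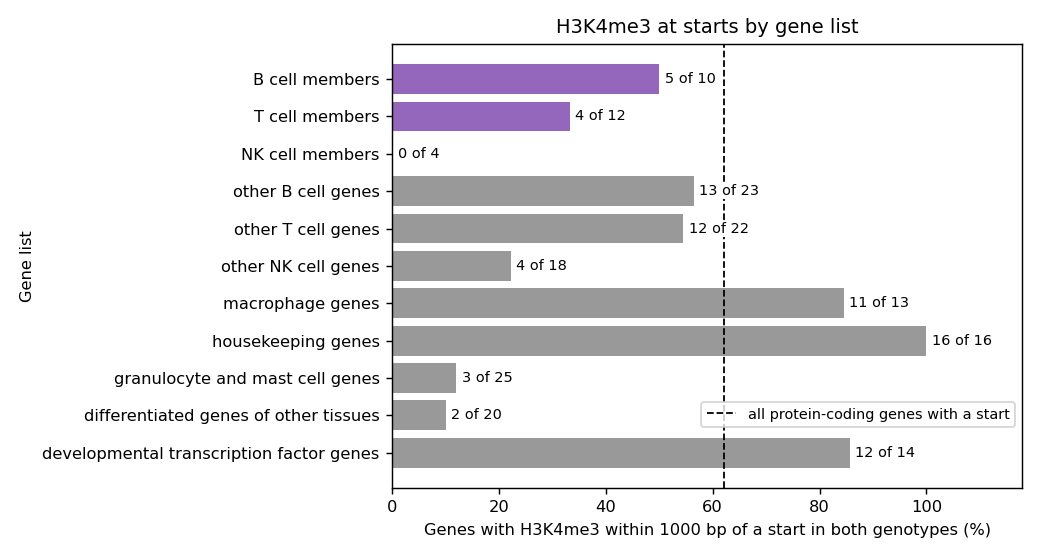
Percent of genes with H3K4me3 within 1000 bp of a start in the table in both genotypes, for each list (purple, lymphoid members; grey, other lists; counts beside the bars), with a dashed line at 62.2% for all protein-coding genes with a start. The B, T and NK cell members lie below the line, at 5 of 10, 4 of 12 and 0 of 4, and the macrophage, housekeeping and developmental transcription factor genes above it.

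Further genes of the lymphoid pathways were held in lists of their own. Tags given for them are those of the strongest peak of the gene in each genotype, which need not be the same peak. Of 32 other B cell genes, 24 had H3K4me3 by the same rule in both genotypes (67.3% of all genes). Cd74 (63 tags) and Dntt (30 tags) were called only with wild-type cells, and 0 genes only with knockout cells. Those with the most tags in a peak were Irf8, a transcription factor gene of macrophages and B cells, with 1014 and 637, Ralgps2 with 540 and 399, the Src family kinase gene Lyn with 510 and 303, and the repressor gene Bcl6 with 488 and 300. The remaining 6 had no peak in either library.

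Of 38 other T cell genes, 22 were marked with both genotypes (beside 67.3% of all genes) and 11 with neither. Ubash3a (44 tags) was among those called only with wild-type cells, and Skap1 (36 tags) among those called only with knockout cells. Notch1 had 695 and 599 tags, Runx1 528 and 393, Satb1 518 and 394, and the Src family kinase gene Fyn 483 and 391. The Satb1 values came from separate peaks on chromosome 17, 51831239 to 51833984 in the wild type and 51812021 to 51813997 in the knockout. Of 22 other NK cell genes, 6 were marked with both genotypes (beside the same 67.3% of all genes) and 13 with neither. The 6 were Zeb2, Id2, Nfil3, Eomes, Tyrobp and Cd244a. The signal adaptor gene Hcst was called only with wild-type cells, through the edge of a broad peak of 5242 bp and 760 tags. The nearest knockout H3K4me3 peak, of 404 tags, lay 1467 bp from Hcst and overlapped the wild-type peak. Zeb2, Id2 and Nfil3, transcription factor genes of many blood cells, had 737 and 422, 629 and 151, and 528 and 338 tags. The wild-type Id2 peak, of 5535 bp, lay within 1000 bp of a start, but no knockout H3K4me3 peak did. The Id2 values therefore do not compare like peaks. At its start Nfil3 had 336 tags in the knockout, so its 338 came from another peak. Eomes, a transcription factor gene of NK and T cells, had 338 and 245, the adaptor gene Tyrobp 270 and 139, and the receptor gene Cd244a 111 and 45. Cd160 (44 tags) was called only with wild-type cells and Txk (26 tags) only with knockout cells.

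Where H3K4me3 peaks of both genotypes could be paired, the median of the lymphoid pairs lay near that of all pairs, and single pairs lay on both sides. Peaks were paired when they overlapped each other alone, by at least 50% of each, and held at least 50 tags in 1 genotype. The knockout density in tags per kb was divided by that of the wild type, and the ratio is given on a log2 scale, centred on the median of 17114 pairs. In this way 14 peaks at 12 of the lymphoid genes were paired, with ratios from -0.42 to 0.42 and a median of -0.05, where the median of all pairs is 0 by construction. Some of these peaks lay on other genes. The Cd79a pair covered a start of Arhgef1, and the Cd4 pair lay outside Cd4, on Gpr162. The Cd247 pair overlapped Gm32999 and the Pax5 pair 5730488B01Rik. The second Gata3 pair lay outside Gata3, on 9230102O04Rik, and the Vpreb3 pair lay past its gene. A gain of 2-fold or more was seen in 0 of the 14 (0.0409% of all pairs) and a loss of that size in 0 (0.0117%). Of the 14, 9 lay below 0, beside 50% of all pairs. Cd22 was the lowest, at -0.42 (95% interval -0.88 to 0.02, counting error only), with 2.65% of all pairs below it. Vpreb3 was the highest, at 0.42 (-0.16 to 1.01), followed by the outer Bcl11b peak at 0.40 (-0.20 to 1.01), with 94.2% of all pairs below it. Tcf7 was at 0.01 (-0.24 to 0.26), Gata3 at -0.11 (-0.33 to 0.11) and Lck at -0.05 (-0.35 to 0.24). The intervals of all 14 included 0, which does not show that the genotypes were alike. Scaled to filtered tags in place of centring, 12 of the 14 lay below 0 and the median was -0.24, while the median of all pairs was -0.19. Scaled to library totals 11 of the 14 lay below 0, and 5 did when whole peaks were compared by their tags, not their density, with a median of 0.09.

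**Figure D5:**
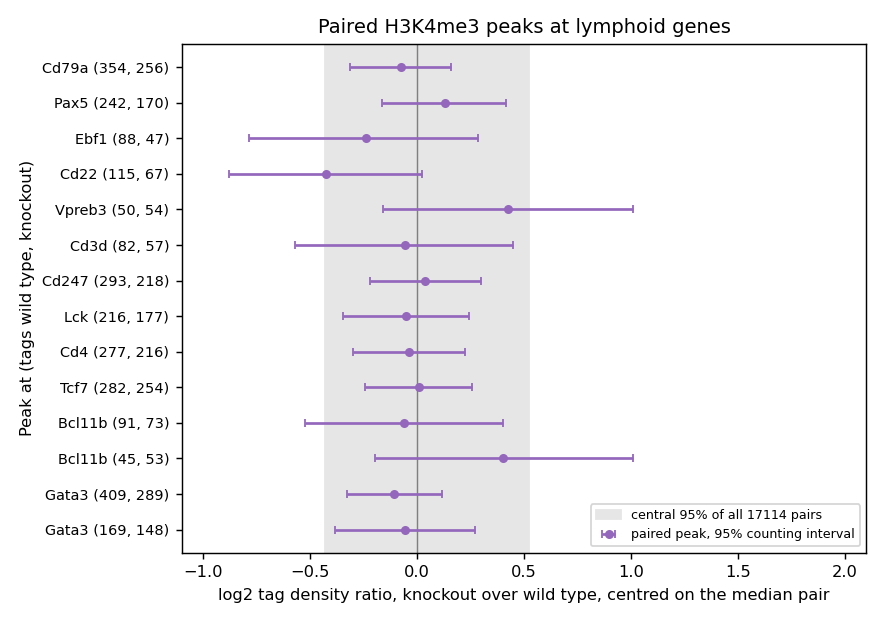
Centred log2 ratio of H3K4me3 tag density, knockout over wild type, for the 14 paired peaks at lymphoid genes (points, with 95% counting intervals as bars; tags in wild type and knockout beside the gene), with the central 95% of all 17114 pairs in grey. All 14 intervals include 0, and all points lie within the grey band, with Cd22 at -0.42 and Vpreb3 at 0.42. Some of the peaks lie on other genes, such as that of Cd79a on Arhgef1.

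H3K9me3 was called at 6 lymphoid genes in each genotype, a share that a list of 33 genes cannot tell from that of all genes. In the wild type 6 of 33 had a peak, or 18.2% (exact Clopper-Pearson 95% interval 6.98 to 35.5%), beside 25.6% of all protein-coding genes, and in the knockout also 6 (28.1%), with 3 in both, Pax5, Cr2 and Tcf7 (16.9%), and 9 in at least 1 (36.8%). Ebf1, Fcer2a and Gata3 had one in the wild type alone (8.74%), and Cd247, Cd5 and Bcl11b in the knockout alone (11.2%). The peaks came to 7 with wild-type and 8 with knockout cells over 1.59 Mb of genes with their windows, or 0.440 and 0.503 per 100 kb, beside 0.783 and 0.818 over all protein-coding genes. By length, 0 of 8 genes under 10 kb had a peak in either genotype (15.7% of all genes of that length), 2 of 15 from 10 to 30 kb (32.8%), 5 of 7 from 30 to 100 kb (54.6%) and 2 of 3 of 100 kb or more (79.4%).

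Within 1000 bp of a start H3K9me3 was called for 2 of 26 genes in the wild type, Ebf1 and Tcf7 (11.6% of all genes with a start), and 2 in the knockout, Cr2 and Tcf7 (14.6%). Tcf7 was the 1 gene in both (7.04%), and 3 genes were in at least 1 (19.2%).

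The H3K9me3 peaks held few tags. In the wild type they held 12 to 23 tags, with a median of 18, beside 16 over the whole list, and in the knockout 13 to 65, with a median of 22.5, beside 17. The largest were in the knockout, 65 tags in Bcl11b (chromosome 12, 107915859 to 107916779), 86.6 kb from its start and with no H3K4me3 peak over it, and 62 tags in Pax5. This Pax5 peak (chromosome 4, 44703618 to 44704467) lay inside the largest H3K4me3 peak of the gene, and a wild-type H3K9me3 peak of 19 tags lay there too. Tcf7 had 23 and 30 tags inside its H3K4me3 peak, across the gene's outer 5' end and just upstream of its outer start in the table. In Cr2 a peak 33.6 kb from the start held 22 tags in wild-type cells and, 33.7 kb from it, 14 tags in knockout cells, with no H3K4me3 there. A second Cr2 peak, of 13 tags in the knockout, lay over the start. Fcer2a, the low-affinity IgE receptor gene, was counted for 12 tags past the gene, inside Trappc5.

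Some of these peaks lay under H3K4me3 peaks and some did not. In the wild type 2 of the 7 overlapped an H3K4me3 peak of the same genotype, those of Pax5 and Tcf7, beside 22.4% of all H3K9me3 peaks. In the knockout 5 of the 8 did, 2 in Pax5 and 1 each in Cr2, Cd247 and Tcf7, beside 33.7%. Seen from the other mark, 2 of 26 H3K4me3 peaks overlapped H3K9me3 in the wild type (12.6% of all H3K4me3 peaks) and 6 of 24 in the knockout (18.8%). No control library was used by the peak caller, so the part of background signal common to both antibodies was not tested. Of the 15 genes without H3K4me3 in either genotype, Fcer2a was the sole one counted for H3K9me3, in the wild type. The other 14, among them Cd79b, Ms4a1, Cd3e, Cd8a and all 5 NK cell genes, had neither mark called (42.4% of the 33, exact Clopper-Pearson 95% interval 25.5 to 60.8%, beside 25.4% of all protein-coding genes). Klrb1c is among them by the edge of the rule, since H3K9me3 peaks of 35 and 38 tags lay 1179 bp (wild type) and 1056 bp (knockout) from the gene.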

How the data were processed

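H3K4me3 and H3K9me3 were mapped by ChIP-seq in wild-type and Sun knockout peritoneal macrophages, with 1 library per group. Each deposited file is a peak list of 1 library, called by the authors with MACS 1.4.2 without a control, with a p-value limit of 1e-05 and local background up to 10000 bp, per the file headers. The submitters' processing notes also name CASAVA 1.4, Bowtie 0.12.8, DiffBind and mm10 without their roles. Deposited values per peak are tag counts, a score (-10 times log10 of the p-value), a fold enrichment ratio, not printed here, and other measures in bp (width and summit). The file headers give fragment sizes of 142 and 149 bp (H3K4me3) but only 66 and 71 bp (H3K9me3).

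Genes and starts came from RefSeq tables of GRCm38.p6, the assembly of mm10. The member genes and lists were chosen with earlier results of these data known. Every member is named, and of each further list up to 4 genes with the most wild-type H3K4me3 tags and up to 4 called in 1 genotype. Eomes, Tyrobp and Cd244a were named after their values were seen, and some genes of those lists are not reported here. From the granulocyte and mast cell list, 1 gene is not in the table used. Ratios have exact conditional binomial intervals. The computation was tested on simulated data. Alternatives covered windows, scores, list length, starts, scaling, pairing and tag minimums. Software was scipy 1.17.1, numpy 2.4.6, pandas 2.3.3 and matplotlib 3.10.9 under Python 3.11.15.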

Additional observations from a re-analysis of the deposited data

How the results depend on the processing

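The number of lymphoid genes with H3K4me3 stayed within 1.5 times that reported (16 in each genotype, 14 in both) with windows of 0, 500 and 2500 bp, a score of at least 100, equal numbers of peaks, peaks nearest to the gene's own start and peaks at either gene end. The last was added after the data were seen. Counting only peaks within 1000 bp of a start gave 9 in the knockout and 9 in both genotypes. Of the genes lost, Cd4 has no start in the table. The peaks of Cd79a, Vpreb3, Cd3d and Cd247, and in the knockout Fcrla and Zap70, lay over 1000 bp from their starts in the table. With a score of at least 100 (p of 1e-10), Cd5, Il7r, Fcrla and Zap70 were no longer called, nor Ebf1, Cd22 and Cr2 in the knockout, and with 2500 bp Cd5, Zap70 and Klrb1c were called in both genotypes, Klrb1c for H3K9me3 as well. H3K9me3 counts (6, 6 and 3 in both) were less stable. With a score of at least 100 they were 0 in the wild type, 2 in the knockout (Pax5 and Bcl11b) and 0 in both. Within 1000 bp of a start, and also at either gene end, they were 2, 2 and 1. The median ratio of paired H3K4me3 peaks was -0.24 scaled to filtered tags and -0.14 scaled to library totals, and tags per peak turned it to 0.09, with 5 of 14 peaks below 0 in place of 9. No pair was 2-fold in any of these settings, nor at 80% overlap or with minimums of 20 or 100 tags. No paired analysis was possible because the labels give 1 library per group. The smallest listed peaks held 17 tags (H3K4me3, both genotypes) and 11 and 12 tags (H3K9me3), and signal that missed the caller's p-value limit is not seen here.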
